A study of Mus musculus with 16 samples.

Results

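The potassium channel genes described here are the 87 genes of 18346 in the deposited count table whose symbol begins with Kcn followed by a letter, without Kcnj3 and Kcnj5. The rule uses the symbol and no measured value, but it was chosen with earlier results of these data known. It covers pore-forming subunits, silent subunits and accessory subunits. Of the 87 genes, 53 had enough counts to be tested, among 13373 genes tested in all. Total RNA of 16 mouse hearts was sequenced, 4 hearts in each of 4 groups. The aged KO group held hearts of mice with a systemic knockout of Armh4 at 25 months (KO_Aged-114, KO_Aged-115, KO_Aged-122 and KO_Aged-125), and the aged WT group held wild-type hearts at 25 months (WT_Aged-1, WT_Aged-4, WT_Aged-5 and WT_Aged-12). The young KO group held hearts of the same knockout at 8 weeks (KO_Young-27, KO_Young-31, KO_Young-38 and KO_Young-53), and the young WT group held wild-type hearts at 8 weeks (WT_Young-29, WT_Young-34, WT_Young-39 and WT_Young-42). The wild-type mice were C57BL/6J. The knockout allele, the sex of the mice and the part of the heart taken are not given in the sources used here. Values per heart follow the order of these names, which carry the animal numbers. The comparisons ask how the knockout hearts differ from wild-type hearts at each age and how each genotype changes with age.

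Potassium channels carry the outward and inwardly rectifying currents that end the cardiac action potential and hold the resting potential of the myocyte. In the mouse ventricle, repolarisation depends largely on transient outward and slowly inactivating outward currents, while inward rectifiers set the resting potential and ATP-sensitive channels link excitability to metabolism. Most channels are complexes in which a pore-forming alpha subunit is modified by silent alpha subunits, which form no channel alone, and by accessory beta subunits that alter gating and trafficking.

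Library totals ranged from 11456503 to 13298660 counts. Armh4 itself had 1 to 22 counts in KO hearts and 158 to 254 counts in WT hearts. The 10 ventricular myocyte markers fixed for this work summed to 68261 to 76773 CPM (read counts relative to the scaled library total) in aged KO hearts, 67818 to 81860.4 CPM in aged WT hearts, 81850.2 to 93326 CPM in young KO hearts and 79156 to 91578 CPM in young WT hearts, so the defining transcripts of ventricular muscle were abundant in every library. Potassium channel genes together made up 1099 to 1576 CPM of the unscaled library total. Their lowest sum was in WT_Aged-1, and for several genes below it is stated whether the result held without that heart.

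A small set of potassium channel genes dominated by level. Levels between genes are compared in the deposited FPKM, which is scaled by gene length. Kcnip2, which encodes the calcium-binding accessory subunit of the transient outward channel, averaged 104 FPKM over the 16 hearts and ranged from 60.3 to 144 FPKM. Kcnk3, an acid-sensitive background channel, averaged 82.6 FPKM, and Kcnj11, the pore of the sarcolemmal ATP-sensitive channel, 63.7 FPKM. Kcng2, a silent subunit, averaged 42.5 FPKM and Kcnh2, the pore of the rapid delayed rectifier, 30.1 FPKM. These 5 genes held 69.0% of the summed FPKM of all 87. Below them came Kcnq1 at 20.9 FPKM, Kcnj8 at 20.2 FPKM, Kcna5 at 13.7 FPKM and Kcnj2 at 10.7 FPKM, which completes the 9 genes with a mean of at least 10 FPKM. In all, 26 of the 87 genes had a mean of at least 1 FPKM. Pore subunits of the transient outward current were lower than their accessory subunit, with Kcnd2 at 7.04 FPKM and Kcnd3 at 3.65 FPKM.

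**Figure D1:**
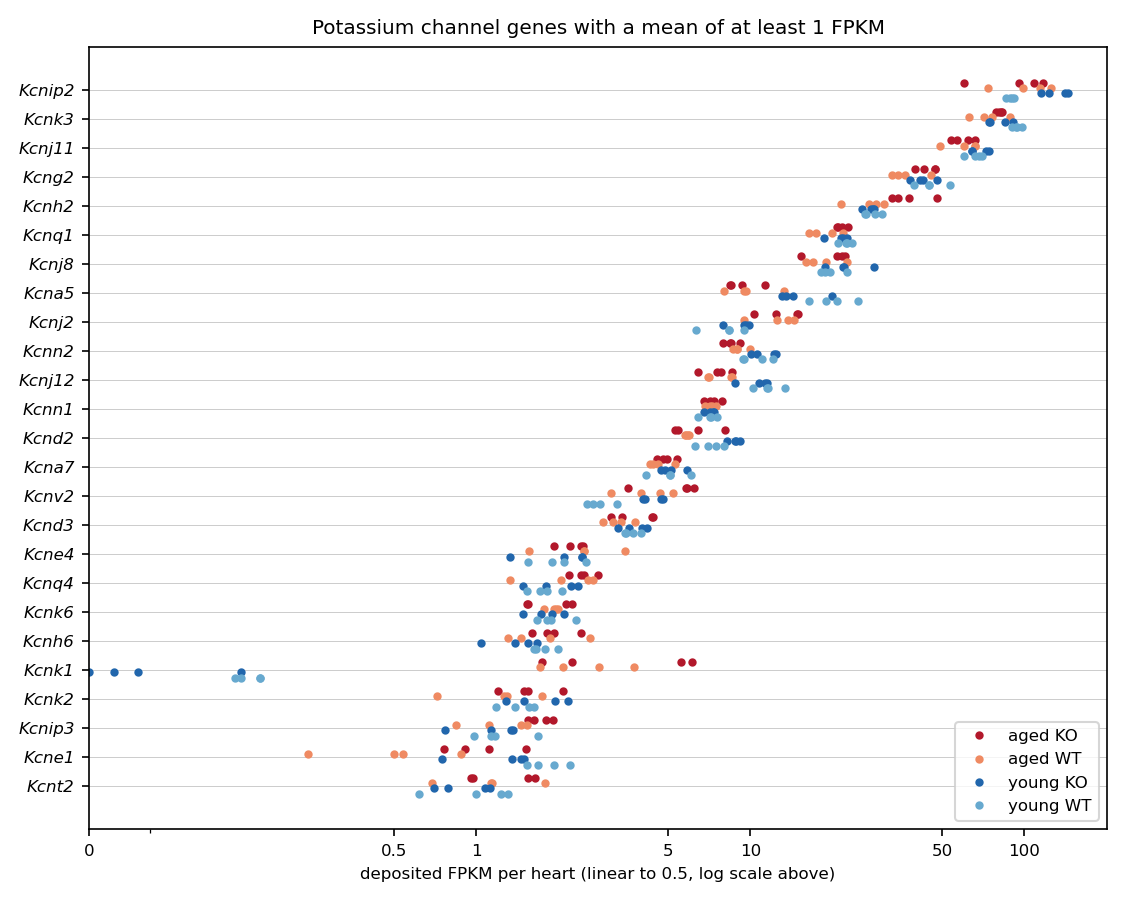
Deposited FPKM in each heart (x axis, linear to 0.5 and logarithmic above) for 25 of the 26 potassium channel genes with a mean of at least 1 FPKM, in order of their mean, with 1 point per heart coloured by group. Most genes span a narrow range over all 16 hearts, while Kcnk1 lies far lower in the 8 young hearts than in the 8 aged hearts.

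Age changed many potassium channel genes in both genotypes. In KO hearts 6 of the 53 tested genes were higher in aged hearts, where 5.03% of all genes tested were called higher, and 5 were lower, where 2.6% of all genes tested were called lower. In WT hearts 10 of the 53 were higher in aged hearts, against 11.8% of all genes tested, and 11 were lower, against 9.93% of all genes tested. As shares of the 53 these are 11.3% higher and 9.43% lower in KO hearts and 18.9% higher and 20.8% lower in WT hearts. Calls are at an adjusted p under 0.05 in the quasi-likelihood test of edgeR, adjusted over all genes tested by the Benjamini-Hochberg method, and changes are log2 fold changes of aged over young with their standard errors. The median change over the 53 genes was -0.03 in KO hearts and -0.20 in WT hearts, against -0.01 over all genes tested in each genotype. Kcnk1, Kcns3 and Kcnq5 exceeded the level of the low-count filter (0.810 CPM) in no young heart, so they entered the test through aged hearts and their share in these counts supports nothing. Kcnip1, Kcnj4 and Kcnk13 exceeded it in 1 or 2 young hearts, so they entered mostly through aged hearts and limit these counts in the same way.

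The ageing calls of the genotypes overlapped, and the KO and WT comparisons share no library. In all 9 genes were called in both genotypes, each in the same direction, namely Kcna5, Kcnd2, Kcnj12 and Kcnn2 lower and Kcnk1, Kcns3, Kcnab2, Kcnip1 and Kcnip4 higher in aged hearts. They are 81.8% of the 11 KO calls and 42.9% of the 21 WT calls. Over all genes tested, 683 genes were called in both, which is 67% of the 1020 KO calls and 23.5% of the 2906 WT calls. The direction of Kcnk1, Kcns3 and Kcnq5 was fixed in part by their entry through aged hearts, and without these 3 genes 7 were called in both, of 8 KO calls and 19 WT calls. These reduced counts still hold Kcnip1 in both genotypes and Kcnj4 and Kcnk13 in WT hearts, which entered mostly through aged hearts. The shares over all genes tested were not reduced in this way. Each of the 21 genes called in WT hearts had the same sign of change in KO hearts, as did 90.3% of the WT calls over all genes tested. Kcnj15 and Kcnq5 were called in KO hearts alone and 12 genes in WT hearts alone, and none of these 14 differed between the genotypes in the test of the ageing difference itself (given at the end).

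In heart tissue of mixed cells a lower level can mean fewer cells of a type or less RNA per cell, which cannot be told apart here. Of the 10 ventricular myocyte markers, 1 fell in aged KO hearts and 2 fell in aged WT hearts, and the ranges of their sums were given above. Macrophage markers rose with age in 7 of 8 cases in KO hearts and 8 of 8 in WT hearts, with sums of 309 to 337 CPM in aged KO hearts, against 173 to 222 CPM in young KO hearts, and 414 to 576 CPM in aged WT hearts, against 152 to 205 CPM in young WT hearts. Markers of pericytes and smooth muscle were lower with age in 0 of 11 cases in KO hearts and 4 of 11 in WT hearts, with sums of 1127 to 1200.4 CPM in aged KO hearts, against 1206 to 1367 CPM in young KO hearts, and 1007 to 1229 CPM in aged WT hearts, against 1234 to 1834 CPM in young WT hearts. Endothelial markers fell in 2 of 9 cases in KO hearts and 3 of 9 in WT hearts, and fibroblast markers fell in 0 of 8 cases in KO hearts and 2 of 8 in WT hearts. Erythroid markers rose in 0 of 6 cases in KO hearts and 6 of 6 in WT hearts, with sums of 898 to 1838 CPM in aged KO hearts, against 616 to 1078 CPM in young KO hearts, and 1021 to 2210.4 CPM in aged WT hearts, against 528 to 715 CPM in young WT hearts. Of 3 lymphocyte markers tested, 0 rose in KO hearts and 2 rose in WT hearts. Of 7 Schwann cell and neuron markers, 1 rose in KO hearts, and 1 rose and 1 fell in WT hearts, while none of 7 pacemaker and conduction markers was called. Of the 9 tested atrial markers 1 rose in aged KO hearts and 0 were called in WT hearts, with sums of 789.6 to 1439 CPM in aged KO hearts, 844 to 1465 CPM in aged WT hearts, 979 to 1296 CPM in young KO hearts and 968 to 1162 CPM in young WT hearts. Of the atrial markers, Bmp10 had no count in any aged KO or young WT heart. The part of these cell types in the changes of potassium channel genes was not tested.

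**Figure D2:**
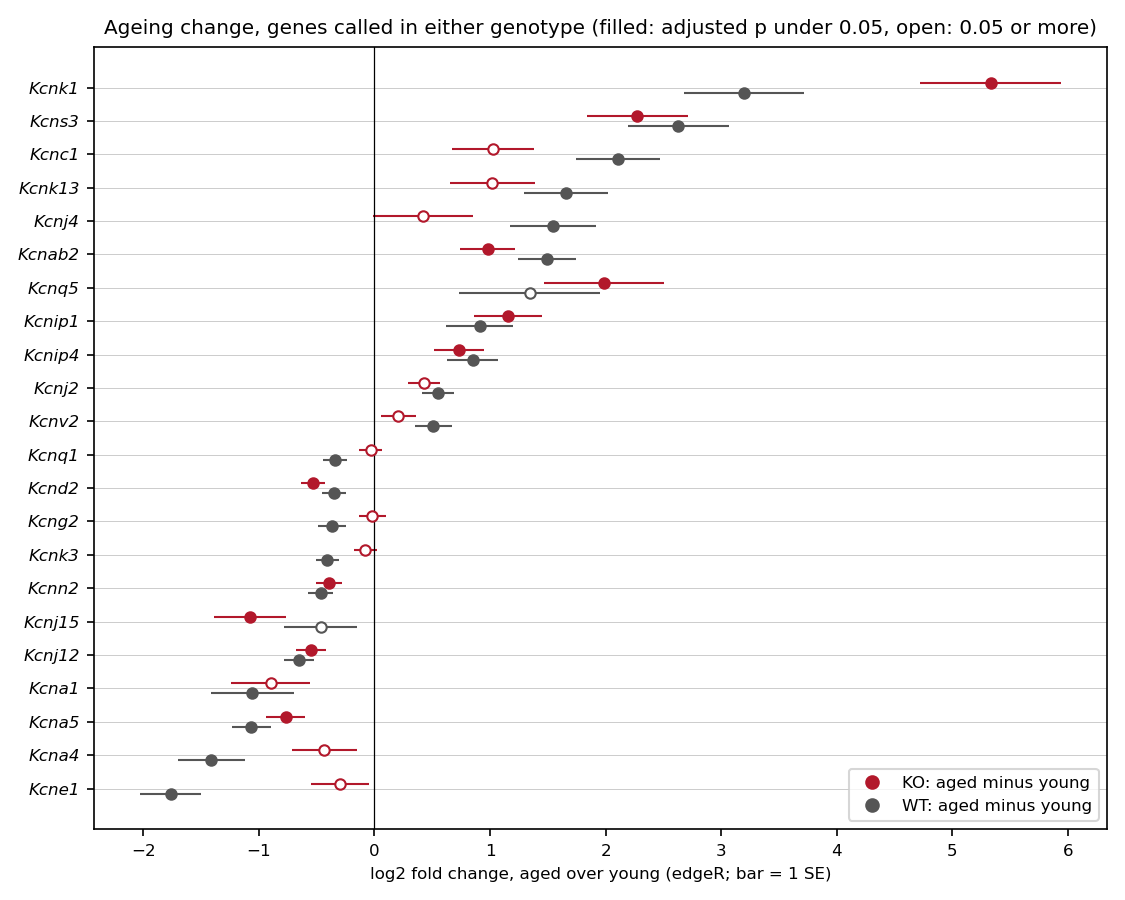
Log2 fold change of aged over young hearts (x axis, from edgeR, bars of 1 standard error) for 22 of the 23 potassium channel genes called in either genotype, with KO above WT for each gene. Filled points have an adjusted p under 0.05. Kcnk1 has the largest change plotted, 5.33 in KO hearts and 3.20 in WT hearts, and Kcne1 the most negative, -1.76 in WT hearts.

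Promoter sequence is shown for 4 genes called in both genotypes that have 1 start in the RefSeq table (Kcna5, Kcnd2, Kcnj12 and Kcnk1). Kcnj2, the inward rectifier that moved the other way from Kcnj12, is shown beside them. Genes on 1 chromosome were left out of this choice, so it need not cover every gene called in both genotypes with 1 start. Each window is the 250 bases before the RefSeq start on GRCm38.p6, printed 5′ to 3′ on the gene's strand. In the GENCODE annotation the nearest protein-coding transcript start lay 143 bases downstream of that start for Kcna5, 157 for Kcnd2 and 68 for Kcnk1. For Kcnj12 and Kcnj2 the starts coincided. The deposited tables were made on GRCm39, and these coordinates hold for GRCm38.p6 only. Of the 87 genes, 64 had a promoter entry. Capitals mark matches, on either strand, to 5 motifs. The core promoter element TATAAA was found in 12.4% of all 32851 windows of this length, the GC box GGGCGG in 32.7%, the E-box CACGTG in 6.02%, the element AGATAA of erythroid and cardiac zinc-finger factors in 9.99% and the GT box GGGGTG in 23.3%. The motifs do not overlap in these windows.
Kcna5, chr6:126535556-126535805, minus strand: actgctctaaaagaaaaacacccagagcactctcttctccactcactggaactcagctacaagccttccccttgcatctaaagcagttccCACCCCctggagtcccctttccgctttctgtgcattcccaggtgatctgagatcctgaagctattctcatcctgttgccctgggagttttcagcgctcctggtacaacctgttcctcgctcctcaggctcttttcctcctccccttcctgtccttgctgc
Kcnd2, chr6:21215096-21215345, plus strand: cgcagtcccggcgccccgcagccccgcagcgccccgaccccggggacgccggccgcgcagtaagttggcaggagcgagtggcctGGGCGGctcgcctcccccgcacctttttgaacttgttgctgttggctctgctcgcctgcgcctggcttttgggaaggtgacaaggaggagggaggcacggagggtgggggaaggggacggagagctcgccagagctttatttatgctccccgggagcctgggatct
Kcnj12, chr11:61065554-61065803, plus strand: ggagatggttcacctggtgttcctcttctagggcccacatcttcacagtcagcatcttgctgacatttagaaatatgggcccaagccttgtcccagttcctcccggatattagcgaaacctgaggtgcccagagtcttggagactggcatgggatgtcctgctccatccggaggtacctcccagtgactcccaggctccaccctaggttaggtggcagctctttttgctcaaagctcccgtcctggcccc
Kcnk1, chr8:125994852-125995101, plus strand: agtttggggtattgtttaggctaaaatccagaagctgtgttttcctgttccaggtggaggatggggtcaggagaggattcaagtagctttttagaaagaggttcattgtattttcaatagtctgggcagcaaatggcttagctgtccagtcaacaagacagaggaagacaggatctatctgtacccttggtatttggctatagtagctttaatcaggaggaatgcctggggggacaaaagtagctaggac
Kcnj2, chr11:111065914-111066163, plus strand: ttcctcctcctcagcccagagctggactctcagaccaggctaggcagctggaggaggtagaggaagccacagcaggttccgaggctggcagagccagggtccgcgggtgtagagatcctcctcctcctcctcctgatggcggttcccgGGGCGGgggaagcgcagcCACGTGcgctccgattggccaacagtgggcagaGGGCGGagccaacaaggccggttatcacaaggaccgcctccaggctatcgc

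The windows differed widely in composition. Kcnd2 had 68.8% GC and 22 CpG dinucleotides and Kcnj2 65.6% and 14, whereas Kcnk1 had 44.4% and 0. Kcna5 had 53.2% GC and 3 CpG and Kcnj12 56% and 4. The median of all windows was 52.4% GC and 6 CpG. Kcnj2 held 2 GC boxes and 1 E-box, Kcnd2 held 1 GC box and Kcna5 1 GT box, and none of the 5 motifs was in the windows of Kcnj12 or Kcnk1.

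Among voltage-gated alpha subunits of cardiac repolarisation, more genes were called lower than higher with age, most of them in WT hearts. Of 17 tested, 1 was higher (5.88%) and 2 were lower (11.8%) in aged KO hearts, where 5.03% of all genes tested were called higher and 2.6% lower. The gene called higher in KO hearts, Kcnq5, entered the test through aged hearts alone. In aged WT hearts 1 was higher (5.88%) and 6 were lower (35.3%), against 11.8% of all genes tested called higher and 9.93% lower. Their median change was -0.14 in KO hearts and -0.34 in WT hearts, against -0.01 over all genes tested. Kcna5 encodes the pore of the ultrarapid delayed rectifier, which carries a slowly inactivating outward current in mouse ventricle. Its level was 22.4, 22.1, 24.9 and 30.7 CPM in aged KO hearts, against 36.8, 35.7, 56.4 and 41.4 CPM in young KO hearts. In WT hearts it was 25.4, 35.3, 26.2 and 21 CPM in aged WT hearts, against 66.9, 57.4, 55.3 and 46.1 CPM in young WT hearts. Every aged heart lay below every young heart of its own genotype. Kcna5 fell by 0.77 ± 0.17 on the log2 scale in KO hearts (adjusted p = 0.00874) and fell by 1.06 ± 0.17 in WT hearts (adjusted p = 0.000205).

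Kcnd2, a pore subunit of the fast transient outward current, had 27.8, 31.9, 40.7 and 27.8 CPM in aged KO hearts, against 45.4, 42.6, 47.4 and 50.4 CPM in young KO hearts. In WT hearts Kcnd2 had 30.2, 30.3, 30.5 and 29.1 CPM in aged WT hearts, against 38.7, 37.2, 34.9 and 42.3 CPM in young WT hearts. The groups did not overlap within either genotype, and the 4 aged WT hearts were almost level. Kcnd2 fell by 0.53 ± 0.10 in KO hearts (adjusted p = 0.00297) and fell by 0.35 ± 0.10 in WT hearts (adjusted p = 0.0207). The WT call was lost without WT_Young-42 (adjusted p = 0.0913), with scaling by library totals only and in both limma fits of FPKM. Its counts were fractional in 12 of 16 libraries, so reads may be shared with another gene. Kcnd3, the other pore subunit of that current, was not called, at -0.05 ± 0.12 in KO hearts (adjusted p = 0.858) and -0.23 ± 0.12 in WT hearts (adjusted p = 0.166).

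Kcna4 encodes the pore of the slowly recovering transient outward current. It had 1.76, 3.81, 2.06 and 1.94 CPM in aged KO hearts, against 2.19, 4.03, 3.55 and 3.09 CPM in young KO hearts. In WT hearts Kcna4 had 1.62, 1.43, 1.99 and 1.68 CPM in aged WT hearts, against 2.82, 4.67, 6.8 and 3.69 CPM in young WT hearts. Aged and young WT hearts did not overlap, whereas KO_Aged-115 lay among the young KO hearts. Kcna4 fell by 1.41 ± 0.29 in WT hearts (adjusted p = 0.00138), and its change in KO hearts was -0.43 ± 0.28 (adjusted p = 0.402).

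Kcnq1, the pore of the slow delayed rectifier, had 52.8, 49, 56.9 and 52.1 CPM in aged KO hearts, against 46.3, 52.1, 60 and 57.4 CPM in young KO hearts. In WT hearts Kcnq1 had 41, 52.9, 50.2 and 40.2 CPM in aged WT hearts, against 51, 58.3, 65.7 and 58.6 CPM in young WT hearts. WT_Aged-4 lay above WT_Young-29, so the WT groups overlapped, and so did the KO groups. Kcnq1 fell by 0.34 ± 0.10 in WT hearts (adjusted p = 0.0218) and was at -0.03 ± 0.10 in KO hearts (adjusted p = 0.892). The WT call was lost without WT_Aged-1 or WT_Aged-12 or WT_Young-34, WT_Young-39 or WT_Young-42 (adjusted p up to 0.0852), in both limma fits of FPKM and with only the WT groups in the fit. Kcna1, better known from axons, was low, with 2.45, 3.81, 3.81 and 2.1 CPM in aged KO hearts, against 6.47, 5.27, 5.03 and 5.92 CPM in young KO hearts. In WT hearts Kcna1 had 2.68, 3.88, 2.22 and 0.80 CPM in aged WT hearts, against 7.32, 5.23, 2.15 and 5.2 CPM in young WT hearts, with WT_Young-39 among the aged hearts. The KO groups did not overlap, at -0.90 ± 0.34 (adjusted p = 0.129). Kcna1 fell by 1.06 ± 0.36 in WT hearts (adjusted p = 0.0424). That call was lost without WT_Aged-1, WT_Aged-5 or WT_Aged-12, any of the 4 young KO hearts, or WT_Young-29, WT_Young-34 or WT_Young-42 (adjusted p up to 0.136), and under 5 of 8 other settings.

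Kcnc1 rose in WT hearts and Kcnq5 rose in KO hearts. Kcnc1, a fast-gating channel best known from neurons, had 4.36, 3.98, 1.52 and 4.29 CPM in aged KO hearts, against 2.19, 1.23, 1.9 and 1.58 CPM in young KO hearts. In WT hearts Kcnc1 had 2.6, 6.58, 3.9 and 6.64 CPM in aged WT hearts, against 1.13, 1.69, 0.603 and 1.09 CPM in young WT hearts. Every aged WT heart was above every young WT heart, and KO_Aged-122 lay within the young KO range. Kcnc1 rose by 2.11 ± 0.37 in WT hearts (adjusted p = 0.000388) and had a value of 1.03 ± 0.35 in KO hearts (adjusted p = 0.0864). Without KO_Aged-122 the KO value was 1.29 (adjusted p = 0.0187), and without WT_Aged-1 it was 1.03 (adjusted p = 0.0407). Over all 16 fits with 1 heart left out the KO value ranged from 0.89 to 1.29 (adjusted p up to 0.192, under 0.05 in these 2 alone). Kcnq5, a relative of Kcnq1, had 1.76, 1.66, 0.838 and 0.485 CPM in aged KO hearts, against 0.168, 0.0823, 0.413 and 0.50 CPM in young KO hearts. In WT hearts Kcnq5 had 0.405, 0.713, 0.917 and 0.32 CPM in aged WT hearts, against 0.161, 0.241, 0.0861 and 0.42 CPM in young WT hearts. Its counts summed to 60 over the aged KO hearts and 14 over the young KO hearts, a depth-adjusted ratio of 4.07 (exact 95% interval 2.25 to 7.89, counting error only). KO_Aged-125 lay within the young range. Kcnq5 rose by 1.99 ± 0.52 in KO hearts (adjusted p = 0.0216), a call lost without KO_Aged-114 or KO_Aged-115 or KO_Young-27 or KO_Young-31 (adjusted p up to 0.0756) and in limma on log2(FPKM + 1) (adjusted p = 0.0880), and had a value of 1.34 ± 0.61 in WT hearts (adjusted p = 0.121).

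Kcnh2, the pore of the rapid delayed rectifier, lay just outside the threshold in KO hearts. It had 104, 109, 157 and 128 CPM in aged KO hearts, against 84.3, 91.1, 99.5 and 97.1 CPM in young KO hearts. In WT hearts Kcnh2 had 67.3, 100, 93.7 and 94.1 CPM in aged WT hearts, against 84.8, 90.3, 110.5 and 99.1 CPM in young WT hearts. Aged KO hearts lay above the young KO hearts without overlap, and the WT groups overlapped. The values were 0.42 ± 0.13 in KO hearts (adjusted p = 0.0541) and -0.12 ± 0.13 in WT hearts (adjusted p = 0.568). In DESeq2 the KO value was 0.42 with an adjusted p of 0.0281, and 5 of 8 other settings called it, DESeq2 among them. With each heart left out the value ranged from 0.29 to 0.50, and adjusted p was under 0.05 in 3 of 16 fits (without KO_Aged-114, KO_Aged-115 or WT_Aged-1) and up to 0.185 in the others.

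**Figure D3:**
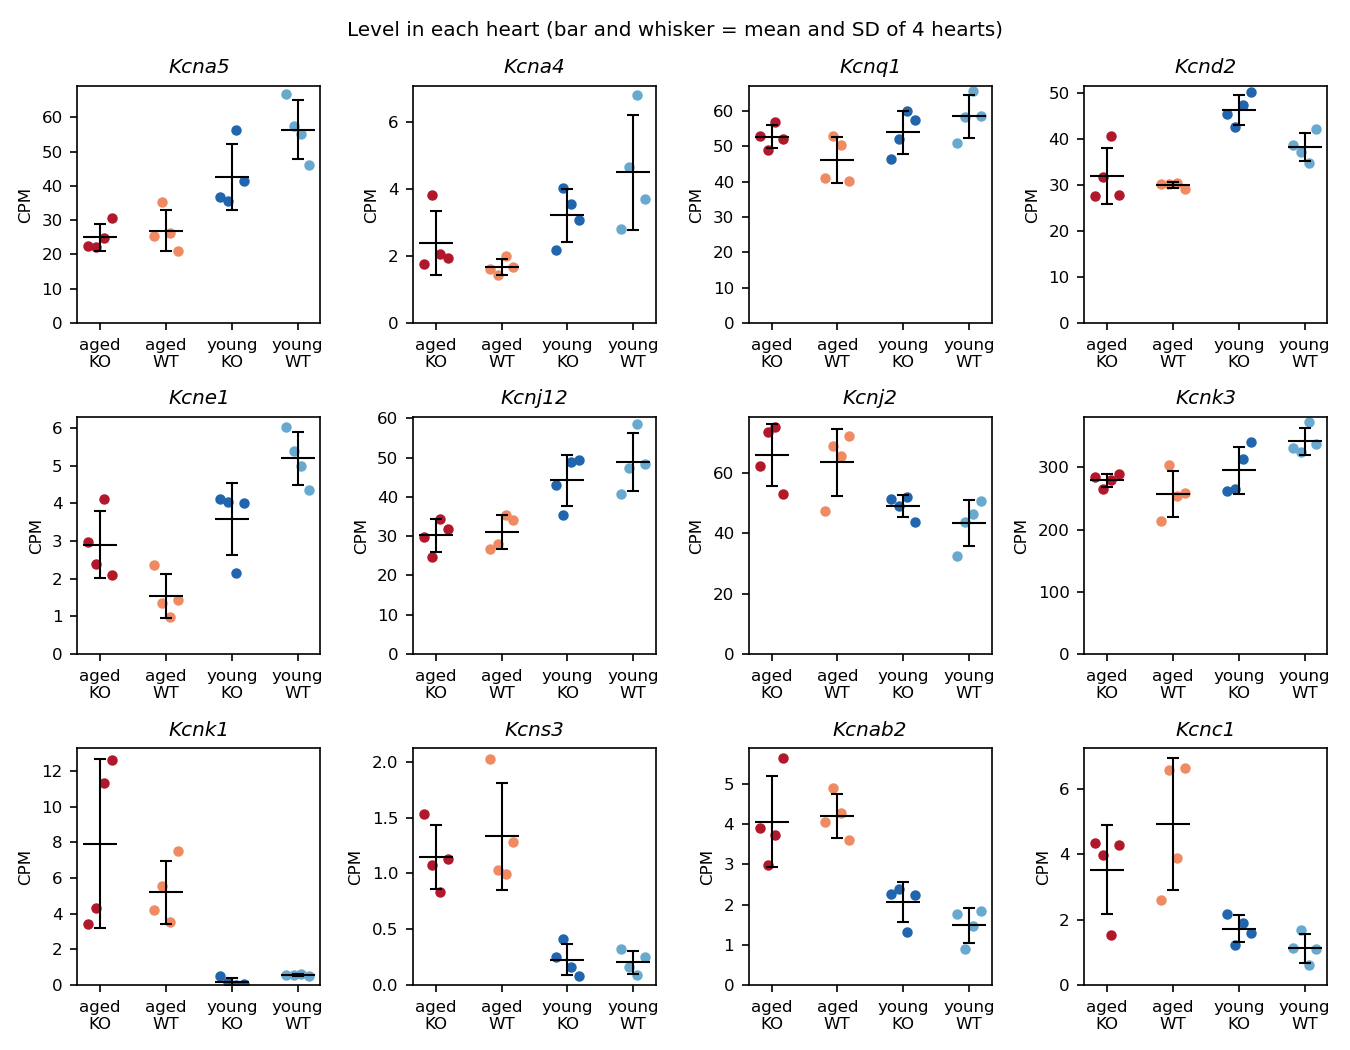
CPM in each heart (y axis from 0, 1 point per heart, bar and whisker for the mean and SD of 4) for 12 potassium channel genes with an ageing call, with aged groups left of young groups. Kcna5, Kcnd2, Kcnj12, Kcnk1, Kcns3 and Kcnab2 separate the aged from the young hearts within each genotype.

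Accessory and silent subunits were called higher with age in KO hearts and in both directions in WT hearts. Of 12 tested, 4 were higher (33.3%, against 5.03% of all genes tested) and 0 were lower in aged KO hearts, and 5 were higher (41.7%, against 11.8%) and 2 were lower (16.7%, against 9.93%) in aged WT hearts, with medians of 0.14 in KO hearts and 0.17 in WT hearts. Among the genes called higher, Kcns3 entered the test through aged hearts alone and Kcnip1 mostly through aged hearts. Their part in these shares supports nothing. Kcne1 encodes the single-pass beta subunit that slows Kcnq1 channels. It had 2.98, 2.4, 4.11 and 2.1 CPM in aged KO hearts, against 4.12, 4.03, 2.15 and 4.0 CPM in young KO hearts. In WT hearts Kcne1 had 2.35, 1.35, 0.993 and 1.44 CPM in aged WT hearts, against 6.04, 5.39, 4.99 and 4.36 CPM in young WT hearts. Every aged WT heart was below every young WT heart, while KO_Young-38 lay within the aged KO range. Kcne1 fell by 1.76 ± 0.26 in WT hearts (adjusted p = 7.77e-05) and had a value of -0.30 ± 0.25 in KO hearts (adjusted p = 0.544).

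Kcnab2, a cytoplasmic beta subunit related to aldo-keto reductases, had 3.9, 2.98, 3.73 and 5.66 CPM in aged KO hearts, against 2.27, 2.39, 1.32 and 2.25 CPM in young KO hearts. In WT hearts Kcnab2 had 4.05, 4.91, 4.28 and 3.6 CPM in aged WT hearts, against 1.77, 0.885, 1.46 and 1.85 CPM in young WT hearts. No aged heart overlapped a young heart in either genotype. Kcnab2 rose by 0.98 ± 0.24 in KO hearts (adjusted p = 0.0136) and by 1.49 ± 0.25 in WT hearts (adjusted p = 0.000222). The KO call was lost without KO_Aged-125 or KO_Young-38 (adjusted p up to 0.0629). Kcnab1, its paralogue, was not called, at -0.19 ± 0.36 in KO hearts (adjusted p = 0.82) and -0.57 ± 0.35 in WT hearts (adjusted p = 0.265).

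Kcns3, a silent subunit that modifies delayed rectifiers, was near the limit of detection in young hearts. It had 1.53, 1.08, 0.838 and 1.13 CPM in aged KO hearts, against 0.252, 0.412, 0.165 and 0.0834 CPM in young KO hearts. In WT hearts Kcns3 had 2.03, 1.03, 0.993 and 1.28 CPM in aged WT hearts, against 0.322, 0.161, 0.0861 and 0.252 CPM in young WT hearts. All aged hearts lay above all young hearts. Summed counts were 58 in aged KO hearts and 11 in young KO hearts, a ratio of 5.01 (interval 2.6 to 10.6), and 67 in aged WT hearts and 10 in young WT hearts, a ratio of 6.41 (interval 3.28 to 14). The fitted rises were 2.28 ± 0.44 in KO hearts (adjusted p = 0.00276) and 2.63 ± 0.44 in WT hearts (adjusted p = 0.000228).

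Kcnip1 and Kcnip4, relatives of the main cardiac accessory subunit Kcnip2, rose in both genotypes. Kcnip1 had 1.61, 1.08, 1.37 and 2.1 CPM in aged KO hearts, against 0.588, 0.906, 0.578 and 0.667 CPM in young KO hearts. In WT hearts Kcnip1 had 1.7, 1.27, 1.15 and 2.0 CPM in aged WT hearts, against 0.805, 0.644, 0.775 and 1.01 CPM in young WT hearts. The ages did not overlap in either genotype. It rose by 1.16 ± 0.30 in KO hearts (adjusted p = 0.0197) and by 0.91 ± 0.29 in WT hearts (adjusted p = 0.0286). The KO call was lost without KO_Aged-125 or KO_Young-27, KO_Young-38 or KO_Young-53 (adjusted p up to 0.0770). The WT call was lost without WT_Aged-1 or WT_Aged-12 or WT_Young-29, WT_Young-34 or WT_Young-39 (adjusted p up to 0.0881), and in DESeq2. Kcnip4 had 3.75, 6.96, 4.19 and 4.93 CPM in aged KO hearts, against 2.27, 3.79, 3.55 and 2.25 CPM in young KO hearts. In WT hearts Kcnip4 had 4.38, 4.68, 4.51 and 4.8 CPM in aged WT hearts, against 2.01, 3.14, 2.15 and 2.85 CPM in young WT hearts. The KO groups overlapped by 1 pair of hearts and the WT groups did not overlap. It rose by 0.73 ± 0.22 in KO hearts (adjusted p = 0.0413) and by 0.85 ± 0.22 in WT hearts (adjusted p = 0.00884). The KO call was lost without KO_Aged-115 or KO_Aged-125 or KO_Young-27 or KO_Young-53 (adjusted p up to 0.175), in both limma fits and with only the KO groups in the fit. Kcnip4 counts were fractional in all 16 libraries.

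Kcnip2 did not pass. It had 227, 177, 118 and 212 CPM in aged KO hearts, against 232, 237, 298 and 297 CPM in young KO hearts. In WT hearts Kcnip2 had 136, 217, 248 and 191 CPM in aged WT hearts, against 163, 187, 203 and 189.8 CPM in young WT hearts. All aged KO hearts were below all young KO hearts, with KO_Aged-122 lowest, and the WT groups overlapped. The values were -0.54 ± 0.19 in KO hearts (adjusted p = 0.0967) and 0.09 ± 0.19 in WT hearts (adjusted p = 0.765). DESeq2 alone of 8 other settings called the KO value (-0.54, adjusted p = 0.0372). With each heart left out it ranged from -0.65 to -0.37, and adjusted p was under 0.05 without WT_Aged-1 (0.0478) and up to 0.225 in the other 15 fits.

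The silent subunits Kcnv2 and Kcng2, which modify delayed rectifier channels, were called in WT hearts alone. Kcnv2 had 17.3, 29.4, 28.6 and 28.8 CPM in aged KO hearts, against 20.6, 23.9, 24.3 and 21.3 CPM in young KO hearts. In WT hearts Kcnv2 had 19.1, 25.1, 15.7 and 22.5 CPM in aged WT hearts, against 13.3, 14.4, 13.3 and 16.8 CPM in young WT hearts. Both pairs of groups overlapped, KO_Aged-114 being lower than all young KO hearts. Kcnv2 rose by 0.51 ± 0.16 in WT hearts (adjusted p = 0.0276), a call lost without WT_Aged-4 or WT_Aged-12 or WT_Young-29, WT_Young-34 or WT_Young-39 (adjusted p up to 0.0837), and was at 0.21 ± 0.15 in KO hearts (adjusted p = 0.472). Kcng2 had 103, 92.8, 113 and 115.5 CPM in aged KO hearts, against 93.6, 102, 109 and 125.2 CPM in young KO hearts. In WT hearts Kcng2 had 77.4, 108, 85.9 and 86.2 CPM in aged WT hearts, against 96.2, 112, 140.4 and 113 CPM in young WT hearts. WT_Aged-4 lay above WT_Young-29. Kcng2 fell by 0.37 ± 0.12 in WT hearts (adjusted p = 0.0335), a call lost without WT_Aged-1, WT_Aged-5 or WT_Aged-12 or WT_Young-34, WT_Young-39 or WT_Young-42 (adjusted p up to 0.147) and under 4 of 8 other settings. In KO hearts it was at -0.02 ± 0.12 (adjusted p = 0.955).

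Inward rectifiers were called in opposite directions in WT hearts, and those called in KO hearts were lower. Of 7 tested, 0 were higher and 2 were lower (28.6%, against 2.6% of all genes tested) in aged KO hearts, and 2 were higher (28.6%, against 11.8%) and 1 was lower (14.3%, against 9.93%) in aged WT hearts, with median changes of -0.26 in KO hearts and -0.15 in WT hearts. Kcnj4, among those called higher in WT hearts, entered the test mostly through the aged WT hearts. Kcnj2 and Kcnj12 encode pore subunits of the inward rectifier that holds the resting potential. Kcnj12 had 29.9, 24.6, 34.4 and 31.9 CPM in aged KO hearts, against 43.1, 35.5, 48.9 and 49.4 CPM in young KO hearts. In WT hearts Kcnj12 had 26.8, 27.9, 35.3 and 34.1 CPM in aged WT hearts, against 40.7, 47.5, 58.6 and 48.4 CPM in young WT hearts. Every aged heart was below every young heart of its genotype. Kcnj12 fell by 0.55 ± 0.13 in KO hearts (adjusted p = 0.0131) and fell by 0.65 ± 0.13 in WT hearts (adjusted p = 0.00127). The KO call was lost without KO_Aged-115 or KO_Young-53 (adjusted p up to 0.0539).

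Kcnj2 had 62.1, 73.4, 75.2 and 53 CPM in aged KO hearts, against 51.3, 49, 51.8 and 43.8 CPM in young KO hearts. In WT hearts Kcnj2 had 47.4, 68.9, 65.6 and 72.1 CPM in aged WT hearts, against 32.6, 43.8, 46.5 and 50.6 CPM in young WT hearts. The KO groups did not overlap, and WT_Aged-1 lay within the young WT range. Kcnj2 rose by 0.55 ± 0.14 in WT hearts (adjusted p = 0.00858) and was at 0.43 ± 0.14 in KO hearts (adjusted p = 0.0701). Without WT_Aged-1 the WT value was 0.68 (adjusted p = 0.000767) and the KO value 0.43 (adjusted p = 0.0241), and in DESeq2 the KO value passed too (adjusted p = 0.0425). The KO value ranged from 0.37 to 0.52 with each heart left out, with adjusted p under 0.05 in 3 of 16 fits and up to 0.196 in the others. The FPKM ratio of Kcnj12 to Kcnj2 was 0.596 ± 0.135 in aged KO hearts, against 1.16 ± 0.206 in young KO hearts, and 0.633 ± 0.099 in aged WT hearts, against 1.45 ± 0.187 in young WT hearts (mean ± SD, n = 4 each). In FPKM, the transcript of Kcnj2 was thus the higher of the pair in all 8 aged hearts, whereas Kcnj12 was the higher in all 4 young WT hearts. The log2 ratio differed by -0.97 in KO hearts and by -1.20 in WT hearts, each with p = 0.0286 in an exact two-sided permutation test, the smallest p that 4 hearts against 4 allow (adjusted p = 0.171 over 24 ratio tests).

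Kcnj4 and Kcnj15 are rarer inward rectifiers. Kcnj4 had 0.917, 0.331, 0.685 and 0.728 CPM in aged KO hearts, against 0.504, 0.823, 0.413 and 0.25 CPM in young KO hearts. In WT hearts Kcnj4 had 2.11, 2.06, 0.993 and 1.44 CPM in aged WT hearts, against 0.644, 0.644, 0.689 and 0.252 CPM in young WT hearts, with no overlap between the ages. Kcnj4 rose by 1.54 ± 0.37 in WT hearts (adjusted p = 0.00551), where summed counts were 83 in aged and 27 in young hearts, and was at 0.42 ± 0.44 in KO hearts (adjusted p = 0.632). Kcnj15 had 1.61, 0.58, 1.68 and 0.889 CPM in aged KO hearts, against 3.19, 2.47, 2.31 and 2.17 CPM in young KO hearts. In WT hearts Kcnj15 had 1.87, 1.43, 1.37 and 1.12 CPM in aged WT hearts, against 2.98, 1.69, 2.15 and 1.17 CPM in young WT hearts. The KO groups did not overlap and the WT groups did. Kcnj15 fell by 1.08 ± 0.31 in KO hearts (adjusted p = 0.0384) and was at -0.47 ± 0.31 in WT hearts (adjusted p = 0.303). The KO call was lost without KO_Aged-115 or KO_Aged-125 or any young KO heart (adjusted p up to 0.130), with scaling by library totals only and in both limma fits.

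The pores of the ATP-sensitive channels were not called. Kcnj11, the sarcolemmal pore of the myocyte, had 163 ± 16.8 CPM in aged KO hearts, against 197 ± 22.1 CPM in young KO hearts, and 163 ± 27.1 CPM in aged WT hearts, against 190.2 ± 21.5 CPM in young WT hearts. Its changes were -0.27 ± 0.12 in KO hearts (adjusted p = 0.187) and -0.22 ± 0.12 in WT hearts (adjusted p = 0.195). Kcnj8, the pore of the vascular form, had 44.2 ± 6.8 CPM in aged KO hearts, against 52.8 ± 8.41 CPM in young KO hearts, and 41.4 ± 6.63 CPM in aged WT hearts, against 46 ± 3.25 CPM in young WT hearts. Its changes were -0.26 ± 0.13 in KO hearts (adjusted p = 0.25) and -0.15 ± 0.13 in WT hearts (adjusted p = 0.424).

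The two-pore-domain channels, which carry background potassium current, included Kcnk1, whose fitted change was the largest of the potassium channel genes tested. Kcnk1 entered the test through the aged hearts alone, so its values are given as a description. Of 6 tested, 1 was higher (16.7%, against 5.03% of all genes tested) and 0 were lower (against 2.6%) in aged KO hearts. In aged WT hearts 2 were higher (33.3%, against 11.8%) and 1 was lower (16.7%, against 9.93%). The median changes were -0.05 in KO hearts and -0.03 in WT hearts. The genes called higher were Kcnk1 and, in WT hearts, Kcnk13, which entered mostly through aged hearts. The shares called higher therefore support nothing. Kcnk1, a weakly conducting background channel, had 3.44, 4.31, 11.3 and 12.6 CPM in aged KO hearts, against 0.504, 0.165, 0 and 0.0834 CPM in young KO hearts. In WT hearts Kcnk1 had 4.22, 5.55, 3.51 and 7.52 CPM in aged WT hearts, against 0.563, 0.563, 0.603 and 0.503 CPM in young WT hearts. All 8 aged hearts were far above all 8 young hearts, and KO_Aged-122 and KO_Aged-125 were the highest. Counts summed to 402 over aged KO hearts and 9 over young KO hearts, a ratio of 42.5 (interval 22.1 to 93.5), and to 262 over aged WT hearts and 27 over young WT hearts, a ratio of 9.29 (interval 6.24 to 14.4). The fitted rises were 5.33 ± 0.61 in KO hearts (adjusted p = 5.62e-05) and 3.20 ± 0.52 in WT hearts (adjusted p = 0.000355).

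Kcnk3 had 284, 265, 279 and 290.0 CPM in aged KO hearts, against 263, 265, 314 and 341 CPM in young KO hearts. In WT hearts Kcnk3 had 214, 304, 254 and 259 CPM in aged WT hearts, against 331, 325, 373 and 338 CPM in young WT hearts. The WT groups did not overlap and the KO groups did. Kcnk3 fell by 0.41 ± 0.10 in WT hearts (adjusted p = 0.00663) and was at -0.08 ± 0.10 in KO hearts (adjusted p = 0.707). Kcnk13, a halothane-inhibited channel known from microglia, had 0.994, 1.99, 1.68 and 1.29 CPM in aged KO hearts, against 0.42, 0.741, 0.908 and 0.834 CPM in young KO hearts. In WT hearts Kcnk13 had 3.08, 1.82, 1.22 and 2.08 CPM in aged WT hearts, against 0.644, 0.483, 0.344 and 1.09 CPM in young WT hearts. Every aged heart was above every young heart of its genotype. Kcnk13 rose by 1.66 ± 0.36 in WT hearts (adjusted p = 0.00246) and was at 1.02 ± 0.37 in KO hearts (adjusted p = 0.102). The macrophage markers given above rose in the same hearts, and their part in the Kcnk13 values was not tested. Kcnk2, Kcnk5 and Kcnk6 were not called in either genotype.

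The 6 calcium- and sodium-activated channels tested had median changes of 0.17 in KO hearts and -0.43 in WT hearts. In aged hearts of each genotype 1 was lower (16.7%), against 2.6% of all genes tested in KO hearts and 9.93% in WT hearts. That gene was Kcnn2, a small-conductance calcium-activated channel, with 18.7, 16.6, 18.6 and 18.2 CPM in aged KO hearts, against 20.6, 22.9, 23.9 and 27.5 CPM in young KO hearts. In WT hearts Kcnn2 had 14.8, 18.3, 21.3 and 18.5 CPM in aged WT hearts, against 21.6, 25.7, 26.3 and 27.3 CPM in young WT hearts. The ages did not overlap in either genotype. Kcnn2 fell by 0.39 ± 0.11 in KO hearts (adjusted p = 0.0329) and fell by 0.47 ± 0.11 in WT hearts (adjusted p = 0.00471). The KO call was lost without any of the 4 aged KO hearts, KO_Young-31, KO_Young-38 or KO_Young-53 or WT_Young-34 (adjusted p up to 0.131), and with scaling by library totals only, and the WT call was lost in both limma fits. Its paralogue Kcnn1 stayed within 17.6 to 21.1 CPM in all 16 hearts. Kcnma1, the large-conductance calcium-activated pore of smooth muscle, was rare, with 0.701 ± 0.348 CPM in aged KO hearts, against 0.77 ± 0.448 CPM in young KO hearts, and 0.415 ± 0.251 CPM in aged WT hearts, against 0.571 ± 0.446 CPM in young WT hearts, and was not called. None of the 5 remaining tested genes outside these roles was called.

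Genes outside the Kcn symbols that build or regulate these channels were also examined. Of 31 listed, 28 were tested, and 4 were higher (14.3%, against 5.03% of all genes tested) and 3 were lower (10.7%, against 2.6%) in aged KO hearts. In aged WT hearts 3 were higher, a share of 10.7% that was below the 11.8% of all genes tested, and 7 were lower (25.0%, against 9.93%), with median changes of -0.01 in KO hearts and -0.14 in WT hearts. Dpp6, a transmembrane partner that speeds transient outward channels, had 1 or 0 counts in every young heart. Its counts summed to 89 over aged KO hearts and 1 over young KO hearts, a ratio of 84.6 (interval 14.8 to 3379), and to 94 over aged WT hearts and 2 over young WT hearts, a ratio of 45 (interval 12.1 to 377). No aged heart overlapped a young heart. Adjusted p was 1.13e-05 in KO hearts and 2.95e-06 in WT hearts. Like Kcnk1, Dpp6 entered the test through the aged hearts.

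Hopx, a homeodomain regulator of cardiac genes, fell by 0.57 ± 0.11 in KO hearts (adjusted p = 0.00306) and fell by 0.67 ± 0.11 in WT hearts (adjusted p = 0.000215). Lrrc52, an accessory subunit of Slo-family channels, rose by 1.28 ± 0.29 in KO hearts (adjusted p = 0.00823) and by 1.15 ± 0.26 in WT hearts (adjusted p = 0.00347). Cav3, the muscle caveolin, fell by 0.32 ± 0.08 in KO hearts (adjusted p = 0.0225), a call lost without KO_Aged-115, KO_Aged-122 or KO_Aged-125 or KO_Young-53 (adjusted p up to 0.0951), with scaling by library totals only and in both limma fits. Among the others called were Atp1b2 and Etv1 in KO hearts and Atp1b2, Cav3, Lrrc55 and Atp1b1 in WT hearts.

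**Figure D4:**
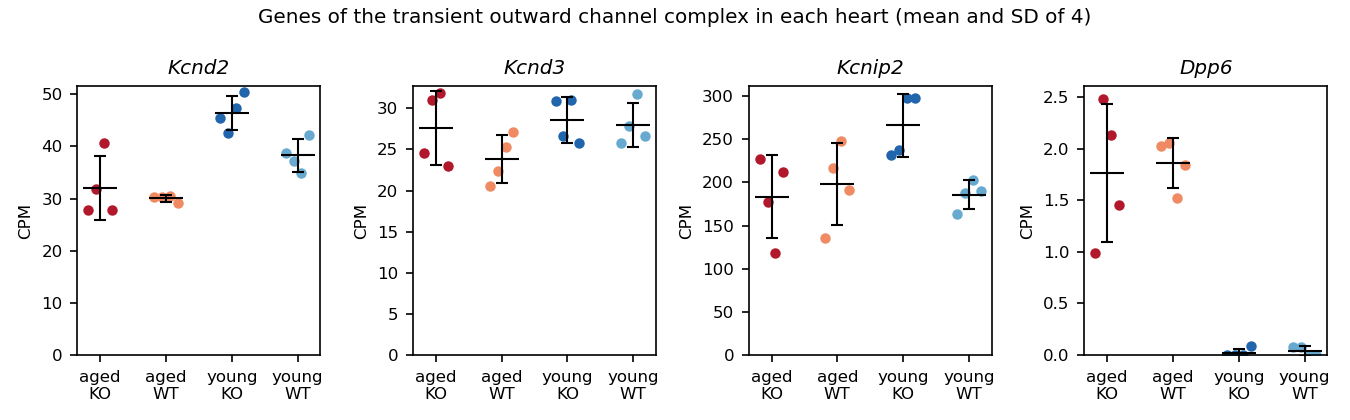
CPM in each heart (y axis from 0, 1 point per heart, bar and whisker for the mean and SD of 4) for the pore subunits Kcnd2 and Kcnd3 of the transient outward channel and their partners Kcnip2 and Dpp6, with aged groups left of young groups. Dpp6 is at or near 0 in the 8 young hearts and at 0.99 to 2.48 CPM in the aged hearts, whereas Kcnd2 is lower in aged than in young hearts within each genotype.

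Ratios of partner subunits within a heart were compared for 6 pairs in 4 comparisons. None of the 24 tests passed after adjustment, the lowest adjusted p being 0.171. The smallest p that 4 hearts against 4 allow in the exact permutation test is 0.0286. A few tests at that value cannot pass adjustment over 24, so the lack of a call decides little. Besides Kcnj12 to Kcnj2, the log2 FPKM ratio of Kcnd3 to Kcnd2 differed by 0.50 between aged and young KO hearts, and that of Kcne1 to Kcnq1 by -1.50 between aged and young WT hearts (each p = 0.0286, exact two-sided permutation test). Kcne1 to Kcnq1 was 0.0312 ± 0.0143 in aged WT hearts, against 0.0827 ± 0.0171 in young WT hearts, and 0.0498 ± 0.0131 in aged KO hearts, against 0.061 ± 0.0199 in young KO hearts. Kcnip2 to Kcnd2 was 16 ± 6.4 in aged KO hearts, against 14.9 ± 1.38 in young KO hearts, and 17.6 ± 3.93 in aged WT hearts, against 12.5 ± 1.54 in young WT hearts. Abcc9, the sulphonylurea receptor of the ATP-sensitive channel, was close to Kcnj11 in every group, with ratios of 1.0 ± 0.104 in aged KO, 0.973 ± 0.149 in aged WT, 0.892 ± 0.10 in young KO and 0.998 ± 0.123 in young WT hearts. Kcnmb1 to Kcnma1, the beta and pore subunits of the large-conductance channel, varied widely with the low counts of Kcnma1, from 4.5 to 34.5 among the aged WT hearts alone.

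No potassium channel gene was called between genotypes at either age. In aged hearts 0 of the 53 passed, against 0.875% of all genes tested. In young hearts 0 of the 53 passed, against 0.269% of all genes tested. At an unadjusted p under 0.05 there were 7 of the 53 (13.2%) at each age, against 10.9% of all genes tested in aged hearts and 11% in young hearts. The median difference of KO minus WT over the 53 was 0.09 in aged hearts and -0.01 in young hearts, against 0.00 over all genes tested. DESeq2 called 1 gene at each age. None of the 28 partner genes was called in either comparison.

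Kcnh2 came nearest in aged hearts. Its level was 104 to 157 CPM in aged KO hearts and 67.3 to 100 CPM in aged WT hearts, and every aged KO heart lay above every aged WT heart. The difference was 0.49 ± 0.13 (adjusted p = 0.0898), and in young hearts it was -0.05 ± 0.13 (adjusted p = 0.918). The aged difference passed in DESeq2 (0.48, adjusted p = 0.0278) and in limma on log2(FPKM + 1) (0.49, adjusted p = 0.0468), and without WT_Aged-1 it was 0.37 (adjusted p = 0.218). None of the 16 fits with 1 heart left out called it (adjusted p from 0.0585 to 0.331). Kcnj4 was next by adjusted p and lower in KO hearts, at 0.665 ± 0.245 CPM in aged KO hearts and 1.65 ± 0.534 CPM in aged WT hearts without overlap. Its difference was -1.29 ± 0.36 (adjusted p = 0.107), from 34 summed counts in aged KO hearts and 83 in aged WT hearts, and no alternative called it. Kcnj4 exceeded the filter level in 4 aged WT hearts but in 1 aged KO heart. It thus entered the test mostly through the group where it was higher, and its difference is given as a description. Kcne1 was at 2.9 ± 0.887 CPM in aged KO hearts and 1.53 ± 0.579 CPM in aged WT hearts, a difference of 0.93 ± 0.28 (adjusted p = 0.143), and the groups overlapped. Kcna4 differed by 0.50 ± 0.30 in aged hearts (adjusted p = 0.60) and by -0.48 ± 0.27 in young hearts (adjusted p = 0.523). Between the same aged groups, 1 of 8 macrophage markers and 1 of 3 lymphocyte markers were lower in KO hearts, and their part in these values was not tested.

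In young hearts Kcnv2, Kcnj6 and Kcnip2 had the lowest adjusted p among the uncalled genes. Kcnv2 averaged 22.5 ± 1.85 CPM in young KO hearts and 14.5 ± 1.64 CPM in young WT hearts without overlap, a difference of 0.64 ± 0.16 (adjusted p = 0.104). It passed in DESeq2 (0.64, adjusted p = 0.0180), with only the young groups in the fit (0.63, adjusted p = 0.00648) and without KO_Aged-114 (0.64, adjusted p = 0.0332), while the other 15 fits with 1 heart left out did not call it (adjusted p up to 0.302). Kcnj6, a G protein-gated inward rectifier named here after its values were seen, was lower in KO hearts, with 0.479 ± 0.175 CPM in young KO hearts and 1.22 ± 0.161 CPM in young WT hearts without overlap. Its difference was -1.33 ± 0.42 (adjusted p = 0.216), from 23 summed counts in young KO hearts and 59 in young WT hearts, and no alternative that gave an adjusted p called it. Young WT hearts, at 1.03 to 1.43 CPM, exceeded the filter level (0.810 CPM), and young KO hearts, at 0.248 to 0.672 CPM, did not. Kcnj6 thus entered the test mostly through the group where it was higher, and its difference is given as a description. Kcnip2 averaged 266 ± 36.4 CPM in young KO hearts and 186 ± 16.5 CPM in young WT hearts, a difference of 0.52 ± 0.19 (adjusted p = 0.315), and passed with only the young groups in the fit (0.51, adjusted p = 0.0233) but in none of the 16 fits with 1 heart left out (adjusted p up to 0.518). Kcna5 differed by -0.41 ± 0.16 in young hearts (adjusted p = 0.365) and by -0.11 ± 0.17 in aged hearts (adjusted p = 0.895). Kcnj11 differed by 0.00 ± 0.12 in aged hearts and 0.05 ± 0.12 in young hearts, and Kcnn2 by -0.01 ± 0.11 in aged hearts and -0.09 ± 0.11 in young hearts.

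**Figure D5:**
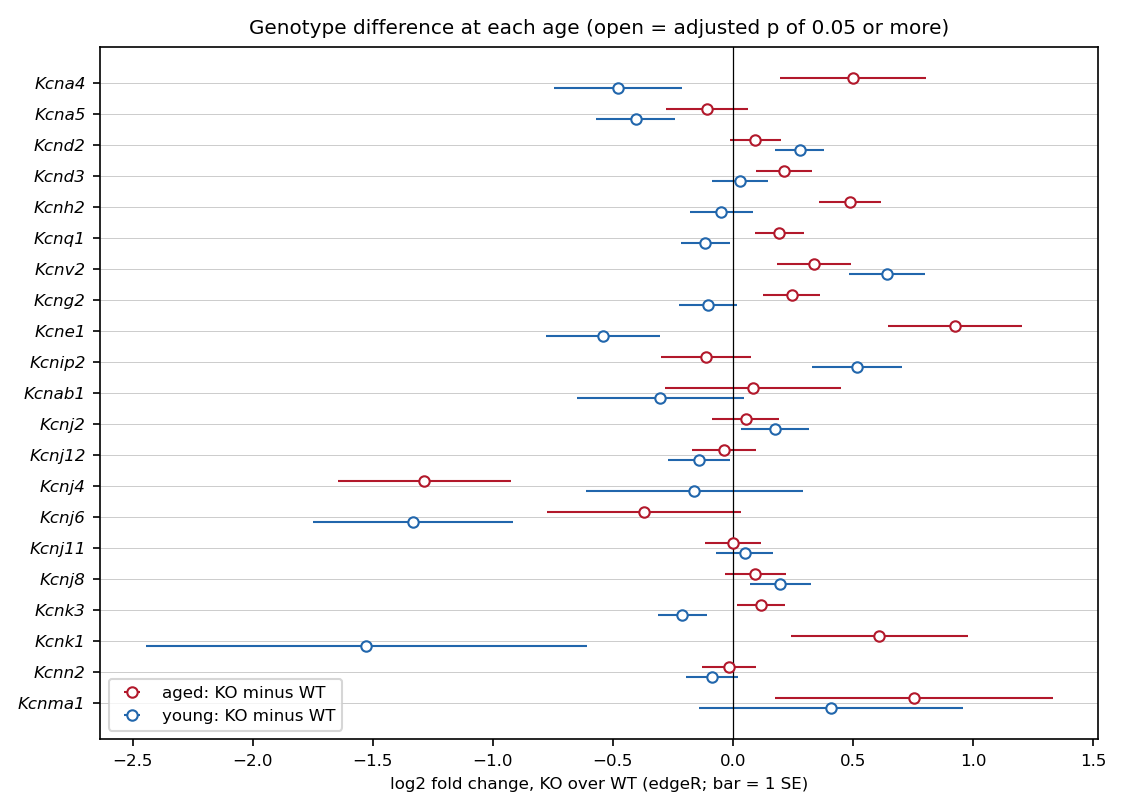
Log2 fold change of KO over WT hearts (x axis, from edgeR, bars of 1 standard error) for 21 potassium channel genes at each age, aged above young for each gene. All points are open because none had an adjusted p under 0.05. Kcnh2 and Kcne1 lie to the right of 0 and Kcnj4 to the left in aged hearts, and Kcnv2 and Kcnip2 lie to the right and Kcnj6 to the left in young hearts. Kcnj4 entered the test mostly through aged WT hearts and Kcnj6 mostly through young WT hearts, the groups where they were higher.

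The difference between the genotypes in their ageing change was tested as the KO change minus the WT change. None of the 53 genes passed, against 0.464% of all genes tested. An unadjusted p under 0.05 was found for 8 of the 53 (15.1%), against 12.2% of all genes tested. The median over the 53 was 0.16, against 0.00 over all genes tested, and 36 of the 53 values were positive, as were 6806 of the 13373 over all genes tested. Kcne1 came nearest, at 1.47 ± 0.37 (adjusted p = 0.0826), its change being -0.30 ± 0.25 in KO hearts and -1.76 ± 0.26 in WT hearts. It passed in DESeq2 (1.47, adjusted p = 0.0183) and without WT_Aged-1 (1.73, adjusted p = 0.0336). The other 15 fits with 1 heart left out did not call it, and over all 16 the value ranged from 1.25 to 1.73 (adjusted p up to 0.203). Kcnt1, a sodium-activated channel named here after its values were seen, was next at 1.5 ± 0.46 (adjusted p = 0.161), its change being 0.81 ± 0.33 in KO hearts and -0.70 ± 0.32 in WT hearts. Kcnh2 differed by 0.54 ± 0.18 (adjusted p = 0.23), Kcna4 by 0.98 ± 0.40 (adjusted p = 0.325), Kcnk1 by 2.14 ± 0.99 (adjusted p = 0.398) and Kcnip2 by -0.63 ± 0.26 (adjusted p = 0.343).

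The 34 genes that were not tested had at most 110 counts in all 16 libraries, the total of the calcium-activated channel Kcnn4, whose level was 0.457 to 0.841 CPM in aged KO hearts, 0.240 to 0.973 CPM in aged WT hearts, 0.252 to 0.743 CPM in young KO hearts and 0.241 to 0.483 CPM in young WT hearts. Kcna10 had no count in any library, and between 67 and 76 of the 87 genes had a count in a given heart. Without the low-count filter, Kcnh1 was called higher in aged KO hearts (adjusted p = 0.0411) and Kcng1 lower in aged WT hearts (adjusted p = 0.00853), both from few counts. Of the 53 tested genes, 6 had fractional counts, namely Kcnd2, Kcnip4, Kcnh6, Kcnh7, Kcnmb3 and Kcnj6, and their values are less certain than those of the others.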

How the data were processed

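RNA of 16 hearts was analysed in 4 groups of 4. The authors deposited a table of expected counts, some of them fractional, and a table of FPKM, scaled by library size and gene length. The submitters' processing notes name HISAT, Bowtie2 and the build GRCm39, but no counting program was named there. Between 9.57% and 10.5% of genes per library had a fractional count (tolerance 1e-09), which can reflect reads shared between similar genes, and counts were rounded before testing. Library totals of 11456503 to 13298660 counts limit precision for rare genes.

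All libraries entered 1 fit in edgeR 4.0.16 (R 4.3.3) with filterByExpr, TMM scaling, a robust quasi-likelihood F test and 12 residual degrees of freedom, which tested 13373 genes. Each standard error is the log2 fold change divided by the square root of F. An adjusted p comes from that fit by the Benjamini-Hochberg method, over all genes it tested, unless DESeq2 1.42.0 or limma 3.58.1 is named. Subunit ratios were compared with exact permutation tests. Count ratios have exact 95% intervals (SciPy 1.17.1). The code was tested on simulated data. Promoters are from RefSeq (GRCm38.p6).

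The potassium channel genes, role lists, partner genes and cell markers were chosen with earlier results of these data known. Named genes are those called in any comparison, a set of 18 cardiac channel genes, the 5 highest by FPKM, those with an adjusted p up to 0.1 and up to 4 called partners per comparison. Kcnj6 and Kcnt1 were added after their values were seen. Some genes under this rule are not reported here, and the counts include them. Hearts of a group are independent biological replicates, per the design text, and the labels name no batch. Alternatives were RLE scaling, library totals only, no filter, DESeq2, limma-trend on log2(FPKM + 1) and log2(FPKM + 0.1), only the compared groups, each heart left out and, chosen after seeing the data, a fit that was not robust.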

Additional observations from a re-analysis of the deposited data

Results flagged for a closer look

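Single hearts lay far from the other 3 of their group in 8 of the 120 combinations of 30 genes and 4 groups that were examined, by Dixon's criterion for a gap relative to the group's range. Chance alone puts about 1 in 20 groups past that criterion. Kcna4 was at 3.81 CPM in KO_Aged-115 and at 1.76 to 2.06 CPM in the other aged KO hearts. Kcnc1 was at 1.52 CPM in KO_Aged-122 and at 3.98 to 4.36 CPM in the others of that group. Kcnj8 was at 34 CPM in the same heart and at 47 to 48 CPM in the others. Kcnv2 was at 17.3 CPM in KO_Aged-114 and at 28.6 to 29.4 CPM in the others. Kcnd2 was at 29.1 CPM in WT_Aged-12 and at 30.2 to 30.5 CPM in the other aged WT hearts, a narrow range. KO_Young-38 was lowest of the young KO hearts for Kcnab2, at 1.32 CPM against 2.25 to 2.39 CPM in the others, and for Kcne1, at 2.15 CPM against 4.0 to 4.12 CPM. Kcnj4 was at 0.252 CPM in WT_Young-42 and at 0.644 to 0.689 CPM in the other young WT hearts.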

How the results depend on the processing

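No called potassium channel gene changed sign under any alternative. Of the ageing calls, 4 of 11 in KO hearts (Kcna5, Kcnd2, Kcnk1 and Kcns3, of which Kcnk1 and Kcns3 entered the test through aged hearts alone) and 14 of 21 in WT hearts were kept under every alternative and with each heart left out. The WT genes kept include Kcnk1 and Kcns3, and also Kcnj4 and Kcnk13, which entered mostly through aged hearts. The genes called higher between KO and WT were 1 in aged hearts with DESeq2 and 1 with limma on log2(FPKM + 1), and in young hearts 1 with DESeq2 and 2 with only the young groups in the fit, against 0 in the fit reported. The genes called lower with age were 6 in WT hearts with limma on log2(FPKM + 1) and 6 on log2(FPKM + 0.1), and 3 in KO hearts with library totals only. DESeq2 called 1 gene in the interaction. The cause was not tested.

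With each heart left out in turn, the counts ranged from 0 to 1 for higher in young KO than WT hearts (1 without KO_Aged-114), 8 to 10 higher and 7 to 11 lower with age in WT hearts, 3 to 9 higher and 2 to 7 lower with age in KO hearts, and 0 to 1 higher in the interaction (1 without WT_Aged-1). In KO hearts 3 genes were higher without KO_Young-27, 2 were lower without KO_Aged-115 or KO_Young-53, and 3 were lower without KO_Aged-125, KO_Young-31 or KO_Young-38. Without WT_Aged-1, 9 were higher and 7 lower in KO hearts, and 7 were lower in WT hearts without WT_Young-42. A fit without 1 heart keeps the spread pooled over all groups.

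Log2 ratios that changed sign, none of which passed its test, ranged with single hearts left out from -0.40 to 0.11 (Kcnip2 to Kcnd2, aged KO and WT), -0.18 to 0.33 (Kcnip2 to Kcnd2, KO ageing), -0.23 to 0.042 (Kcnj12 to Kcnj2, aged KO and WT), -0.14 to 0.27 (Kcnmb1 to Kcnma1, KO ageing), -0.53 to 0.45 (Kcnmb1 to Kcnma1, WT ageing), -0.048 to 0.14 (Abcc9 to Kcnj11, aged KO and WT) and -0.13 to 0.058 (Abcc9 to Kcnj11, WT ageing). As a ratio of CPM, Kcnmb1 to Kcnma1 in WT ageing was -0.14.

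No paired analysis was possible because the 4 groups share no animal numbers. Genes with few counts in young hearts have wide intervals at this depth.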
